A study of Mus musculus with 2 samples.

Results

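The genes Mir218-1 and Mir218-2 encode miR-218, a microRNA (miRNA) that is enriched in motor neurons of the vertebrate spinal cord and hindbrain. They are 2 of the 1973 miRNA genes counted here. They were chosen by name and not by their values, although earlier results of these data were known by then. Both lie in introns of genes for Slit proteins, secreted ligands that repel growing axons through Robo receptors. MicroRNA sequencing was run on neural tube, which becomes brain and spinal cord, from mouse embryos at day 12.5. The mice were of strain B6NCrl and described as healthy, and no genotype change or treatment is named. The only group consists of 2 replicates, pools of 120 embryos (replicate 1) and 88 embryos (replicate 2), each of both sexes. With no second tissue, stage or condition, the data allow 3 kinds of comparison, namely between the Mir218 genes, between them and other miRNA genes, and between the replicate libraries.

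A miRNA gene is transcribed as a long precursor from which a hairpin is cut, and the hairpin is then cut into short mature strands from its 5′ arm (5p) and its 3′ arm (3p). A mature strand guides repression of messenger RNAs that pair with its seed, bases 2 to 8. In mouse motor neurons, miR-218 is known to be made from promoters inside Slit2 and Slit3 that are used apart from the promoters of the host genes. There it represses transcripts that belong to other neuron types. The host genes are active in other cells too, so a count from whole neural tube does not show which cells made the reads. In such bulk tissue, fewer cells of a type and less RNA per cell cannot be told apart.

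The sequences below, from RefSeq on GRCm38.p6 (mm10), are shown because they decide which reads can be assigned to one Mir218 gene. All 5 matched by gene symbol. In the mature strands, which stand first, capitals mark the seed, and in the hairpins capitals mark the mature strands.
miR-218-5p, from both genes: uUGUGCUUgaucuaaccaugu
miR-218-1-3p, from Mir218-1: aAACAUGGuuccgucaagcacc
miR-218-2-3p, from Mir218-2: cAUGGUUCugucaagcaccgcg
Mir218-1 hairpin: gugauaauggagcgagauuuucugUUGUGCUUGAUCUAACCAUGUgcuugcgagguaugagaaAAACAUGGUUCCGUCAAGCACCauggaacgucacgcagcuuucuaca
Mir218-2 hairpin: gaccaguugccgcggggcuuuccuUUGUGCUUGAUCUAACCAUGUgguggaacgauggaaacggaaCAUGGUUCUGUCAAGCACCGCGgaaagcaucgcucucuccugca

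The 5p strand of 21 bases is the same in both hairpins, at bases 25 to 45 of each, so both genes give one 5p seed, UGUGCUU. One other mature strand in the RefSeq table, miR-7002-3p, carries that seed. The 3p strands differ. Set on the Mir218-2 hairpin, the 22 bases of miR-218-1-3p match at 20, and the differences are A1G and C12U, with positions counted from 1 at the 5′ end of miR-218-1-3p. The annotated 5′ end of miR-218-2-3p lies 3 bases later. The annotated 3p seeds are therefore unlike, AACAUGG for Mir218-1 and AUGGUUC for Mir218-2. The seed AACAUGG is shared with miR-496b, and AUGGUUC with 0 other mature strands in the table. Over the whole hairpins, each of 110 bases, 67.3% of 113 alignment columns were identical. Mir218-1 had a GC content of 45.5% and a predicted folding energy of -36.6 kcal/mol, against 54.5% and -42.3 kcal/mol for Mir218-2.

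Mir218-1 (ENSMUSG00000065603) lies on the plus strand of chromosome 5, at 48223942 to 48224051 on mm10. It is in intron 14 of the principal Slit2 transcript, which has 36 exons, 601 bases before the next exon. Mir218-2 (ENSMUSG00000065583) lies on the plus strand of chromosome 11, at 35616816 to 35616925, in intron 14 of the principal Slit3 transcript, also with 36 exons. It is 4379 bases after the exon before it and 5082 bases before the next. Both hairpins thus occupy the intron of the same number in hosts of the same exon count, on the host's strand. In GENCODE M21 neither overlaps an exon or a gene on the opposite strand, and their hosts hold 0 other counted miRNA genes. The start of the host gene lies 240.8 kb upstream of Mir218-1 and 495.6 kb upstream of Mir218-2. Of 23 annotated Slit2 transcripts, 7 span Mir218-1, and the one with the nearest start, Slit2-206, begins 471 bases upstream of the hairpin (transcript support level 3). Another that starts inside the host gene, Slit2-218, begins 34475 bases upstream of the hairpin (transcript support level 1). Of 4 Slit3 transcripts, the principal one alone spans Mir218-2.

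Shared sequence limits what the counts hold, because the files tally reads with several mapping places apart from the genes. The longest run shared by the hairpins has 22 bases, uugugcuugaucuaaccaugug, at bases 25 to 46 of both. A read that starts at the first base of miR-218-5p became specific to one hairpin among annotated miRNA genes only at a length of 23 bases, 2 longer than the annotated strand. A read that starts 1 base earlier was specific at 15 bases, the shortest length tested. Reads from either 3p strand were specific at 15 bases as well. Of the 90 windows of 21 bases in each hairpin, 2 also occur in the other. Exact copies of miR-218-5p were found in 2 annotated genes and of each 3p strand in 1, searching all GENCODE M21 transcripts on both strands. The rest of the genome was not searched here. By exact matching, the gene counts should therefore hold locus-specific reads, and reads of the annotated 5p strand with its exact ends should not be among them. The mismatch setting of the aligner is not named in the sources used here, so this was not checked on the reads. How many of the 3448592 reads of replicate 1 and 2698981 reads of replicate 2 that map to several places came from miR-218-5p is not recorded in the counts.

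**Figure D1:**
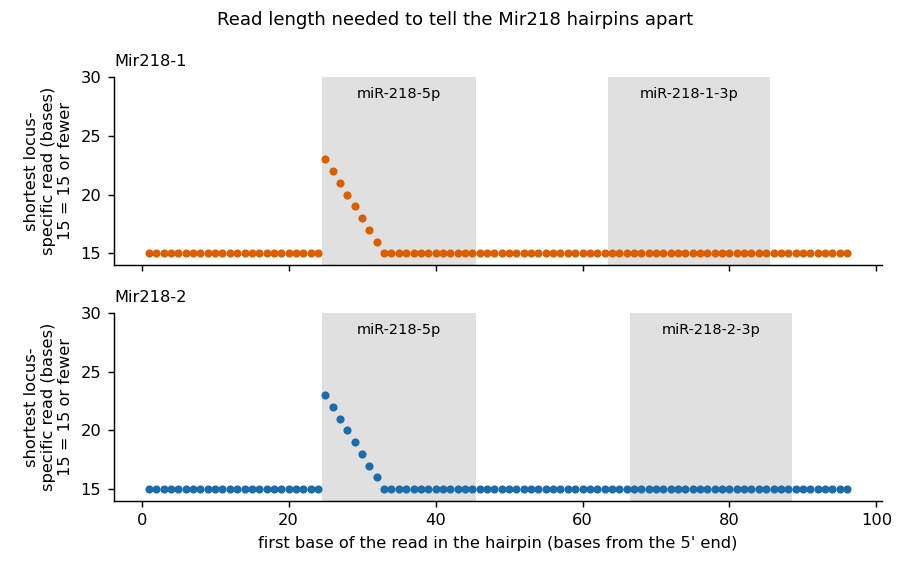
The shortest read length, in bases, at which a read with a given first base is held by no other annotated miRNA hairpin, for Mir218-1 (top) and Mir218-2 (bottom), with lengths of 15 to 30 bases tested and mature strands shaded. Only reads that start in the first bases of miR-218-5p need more than 15 bases, up to 23, and the pattern is the same in both hairpins.

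The libraries held 4802411 (replicate 1) and 4422853 (replicate 2) own-strand reads on miRNA genes, and 371 genes were detected with at least 10 such reads in both. Levels are given as reads per 1000000 gene reads (CPM), and a gene with no read could have up to 0.625 CPM in replicate 1 and 0.678 CPM in replicate 2 (3 reads). Among miRNA markers of the dissected tissue, the neural list had 7 of 9 matched members detected and held 0.404% of the gene reads in replicate 1 and 0.446% in replicate 2. The Hox cluster list, which marks posterior regions, held 36.4% and 34.9%. Lists for other tissues had reads as well. Their shares in replicates 1 and 2 were 2.03% and 1.83% for endothelium, 1.67% and 1.55% for cartilage, mesenchyme and smooth muscle, and 1.91% and 2.61% for sensory ganglia. Skeletal muscle markers held 0.0825% and 0.0479%, the erythroid list 0.00914% and 0.00886% and the liver marker 0.00323% and 0.00140%. Of the matched markers, 7 of 9 in the neural list, 2 of 6 in the Hox list and 0 of 3 in the sensory list share at least 20 bases of hairpin with another miRNA gene. The counts of such genes leave out their reads that map to several places, and the shares of different lists cannot be compared as amounts of tissue. No matched marker was at 0 in both libraries. None of these genes marks motor neurons alone, so the motor neuron name of the Mir218 genes could not be checked against another gene in these data.

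Both Mir218 genes were detected, and their reads lay on their own strand alone. Mir218-1 had 169 reads in replicate 1 and 200 in replicate 2, and Mir218-2 had 1209 and 1374. Opposite-strand reads numbered 0 for both genes in both libraries, as they did for 325 of the 371 detected genes. Per 1000000 gene reads, Mir218-1 stood at 35.2 CPM in replicate 1 (95% exact binomial interval 30.1 to 40.9) and 45.2 CPM in replicate 2 (39.2 to 51.9). Mir218-2 stood at 251.7 CPM in replicate 1 (237.8 to 266.3) and 310.7 CPM in replicate 2 (294.5 to 327.5). Replicate 2 was the higher library for both genes, with overlapping intervals for Mir218-1 and separate ones for Mir218-2. The means were 40.2 ± 7.09 CPM for Mir218-1 and 281.2 ± 41.7 CPM for Mir218-2 (SD, n = 2). Together the genes held 0.0287% of the gene reads in replicate 1 and 0.0356% in replicate 2. Intervals cover only the counting error of reads within 1 library. These PCR reads carry no molecular identifiers in the counts, so reads copied from 1 molecule could not be told apart and the intervals may be too narrow.

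**Figure D2:**
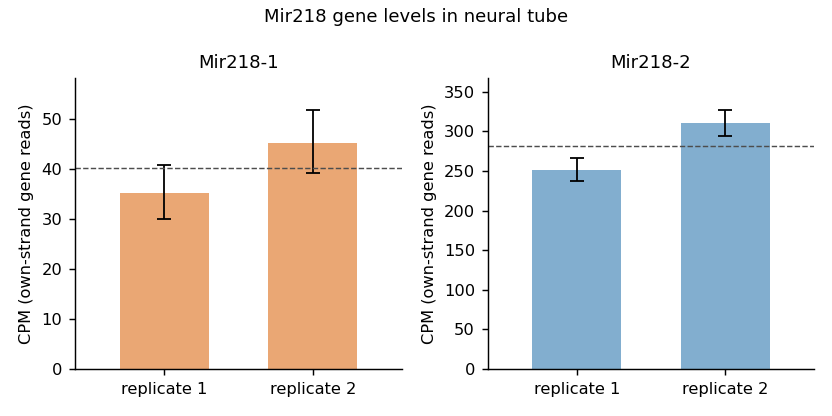
Bars give the CPM of Mir218-1 (left) and Mir218-2 (right) in each library, error bars the exact binomial 95% interval of counting error, and dashed lines the mean of the 2 libraries. The scales differ between panels, with Mir218-1 at 35.2 and 45.2 CPM and Mir218-2 at 251.7 and 310.7 CPM.

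Locus-specific reads came mostly from the Slit3 copy. Mir218-1 held 12.3% of the reads of the pair in replicate 1 (95% exact binomial interval 10.6 to 14.1) and 12.7% in replicate 2 (11.1 to 14.5). Mir218-1 thus had 0.143 ± 0.0041 times the reads of Mir218-2, which was 7.01 ± 0.20 times higher (SD, n = 2). The hairpins have equal length, so this ratio is the same per length. With 2 libraries the smallest two-sided p of an exact sign-flip permutation test is 0.5, which was the value found, although every library had the same order and the SD was far smaller than the difference. The odds of a pair read being from Mir218-1 were 0.96 times as high in replicate 1 as in replicate 2 (95% interval 0.77 to 1.20). Fisher's exact test of this difference gave a two-sided p of 0.738, covering counting error only. The ratio is one of locus-specific reads. How evenly such reads sample each hairpin was not measured, and the 5p reads that both genes share could alter it.

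Among detected genes, Mir218-2 lay in the upper part of the range of levels and Mir218-1 in the lower. By mean CPM, Mir218-1 ranked 247 and Mir218-2 142 of 371, where 1 is the highest. The ranks in replicate 1 were 255 and 152, and in replicate 2 241 and 135. Mir218-1 had 0.351 times and Mir218-2 2.45 times the median of the detected genes, 114.7 CPM. Among the 138 detected genes in introns of protein-coding genes on the same strand, Mir218-1 ranked 84 and Mir218-2 48. Among the 99 detected genes whose hairpin shares at least 20 bases with another miRNA hairpin or its reverse complement, they ranked 65 and 34. Genes annotated on opposite strands of 1 place would match in this way without reads mapping to several places. These levels count reads per gene and are not scaled by hairpin length.

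**Figure D3:**
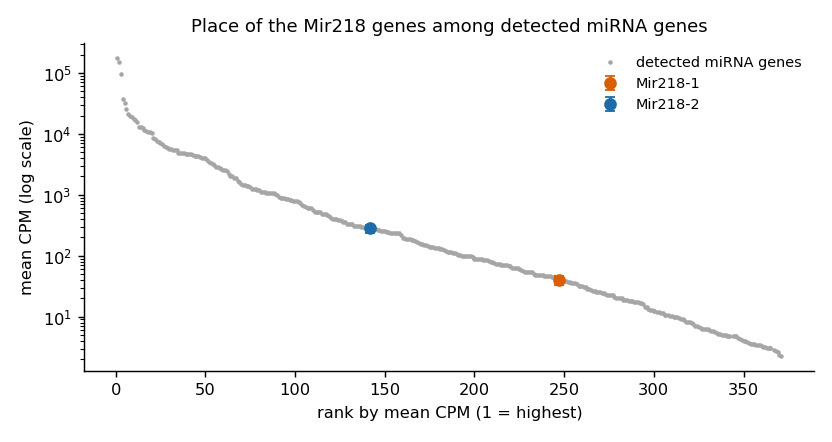
Mean CPM on a log scale against rank for the 371 detected miRNA genes, with Mir218-1 and Mir218-2 coloured and error bars of 1 SD over 2 libraries, which are about the size of the points. Mir218-2 sits at rank 142 with 281.2 CPM and Mir218-1 at rank 247 with 40.2 CPM.

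The genes nearest to the Mir218 genes in level were named by rank alone, over 2 libraries. Just above Mir218-2 stood Mir375, known from pancreatic islets and studied in human motor neuron cultures, at 290.3 ± 101.6 CPM (SD, n = 2 for all values here). Mir9-3, a copy of a neural progenitor miRNA gene, had 283.1 ± 21.1 CPM and Mir671 282.8 ± 17.6 CPM. Just below stood Mir135a-1 at 275.2 ± 48.1 CPM, Mir16-2 at 275.2 ± 28.4 CPM and Mir132, known for activity-dependent expression in neurons, at 270.5 ± 22.9 CPM. All 6 differed from Mir218-2 by less than its own SD of 41.7 CPM. Around Mir218-1, the neighbours above were Mir362 at 44.0 ± 6.24 CPM, Mir6540 at 42.7 ± 5.09 CPM and Mir3072 at 41.7 ± 6.92 CPM. Those below were Mir196a-1 at 40.1 ± 1.65 CPM, Mir326 at 38.3 ± 2.38 CPM and Mir29a at 38.2 ± 13.7 CPM. These too lay within 1 SD of Mir218-1 (7.09 CPM), so the order among neighbours does not hold beyond the spread. Like the Mir218 genes, Mir9-3, Mir135a-1, Mir16-2 and Mir196a-1 share at least 20 bases of hairpin with another miRNA gene, so their values too leave out reads that map to several places.

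Between the libraries, both Mir218 genes were lower in replicate 1. Their log2 ratios of replicate 1 over replicate 2, after TMM scaling, were -0.40 for Mir218-1 and -0.34 for Mir218-2, that is 0.757 and 0.789 times the level of replicate 2. Each passed an exact binomial test with Benjamini-Hochberg adjustment over the 371 detected genes, with adjusted p = 0.0167 for Mir218-1 and 6.6e-09 for Mir218-2. That test covers counting error alone, and 53.1% of all genes tested passed it, 26.1% higher and 27.0% lower in replicate 1. The calls thus do not set the Mir218 genes apart from other genes. Across all detected genes the common coefficient of variation was 16.3%. On the log2 ratio scale this makes 1 SD equal to 0.33, and both Mir218 genes lay just beyond it. Of the detected genes, 85 had a ratio at least as far from 0 as that of Mir218-1 and 117 at least as far as that of Mir218-2. By CPM, the summed neural and sensory ganglia markers were lower in replicate 1, and the sums of all other marker lists, Hox included, were higher (values above). The largest part of the neural sum was Mir137, at 2541 CPM in replicate 1 and 3077 CPM in replicate 2. Members of the neural list went both ways, with 2 of 7 detected called higher and 2 called lower in replicate 1 and a median log2 ratio of 0.29. The part of these lists in the Mir218 ratios was not tested.

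**Figure D4:**
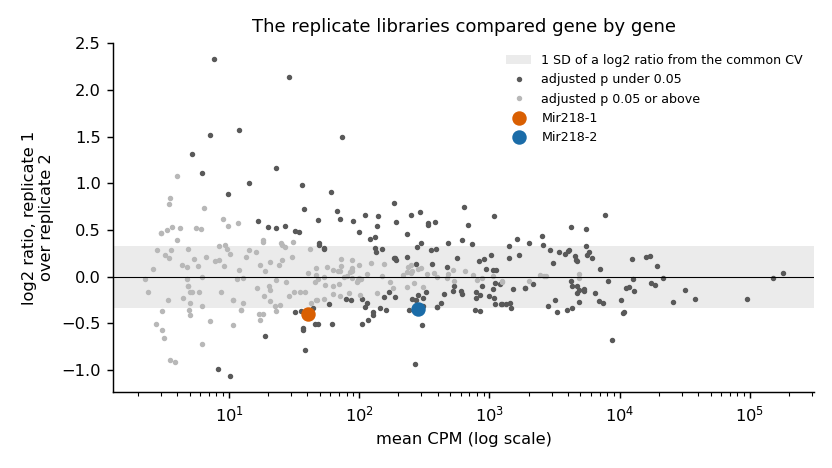
Log2 ratio of replicate 1 over replicate 2 against mean CPM (log scale) for 371 detected genes, dark where the adjusted p of the exact binomial test is under 0.05, with a band of 1 SD (0.33) from the common coefficient of variation. Mir218-1 at -0.40 and Mir218-2 at -0.34 lie just below the band, among many other genes.

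The Mir218 genes were next set beside other miRNA genes with published roles in spinal motor neurons or in the neurons around them. Of 26 listed genes, Mir218 included, 25 matched a counted gene and 23 were detected. By mean CPM, Mir218-1 ranked 19 and Mir218-2 14 of the 25. The highest were Mir17 at 25531 ± 2885 CPM, Mir196b at 11225 ± 420.1 CPM, Mir20a at 10738 ± 1772 CPM, Mir183 at 10623 ± 1787 CPM, Mir182 at 8703 ± 2658 CPM and Mir18 at 4845 ± 538.4 CPM (SD, n = 2). Mir17, Mir18 and Mir20a belong to one cluster that, in mouse, protects limb-innervating motor neurons from death. Mir196b comes from a Hox cluster, and Mir183 and Mir182 are best known from sensory neurons. None of these 6 shares 20 bases with another miRNA hairpin, whereas both Mir218 genes do. Past the test between libraries, 5 of the 23 were higher and 12 lower in replicate 1, both Mir218 genes among the lower, beside 26.1% and 27.0% of all genes. Their median log2 ratio was -0.20, against 0.0041 for all detected genes. Without the Mir218 genes, 5 of 21 were higher and 10 lower in replicate 1, with a median of -0.19. The motor neuron list also holds members of the neural, Hox and sensory ganglia lists above. Among them are Mir183, Mir96 and Mir182, the whole sensory ganglia list, all called lower. Genes of one cluster are not independent, and nothing particular to the list is read from this.

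Other pairs of miRNA genes listed for the same or nearly the same mature strand gave a scale for the Mir218 genes. Mir101a and Mir101b are among them, although 0 strands of either occur whole in another hairpin. Of 24 listed pairs, 22 matched counted genes, and in 17 both copies were detected. The Mir218 genes summed to 286.9 CPM in replicate 1 and 355.9 CPM in replicate 2, a mean of 321.4 ± 48.7 CPM (SD, n = 2). This placed them 13 among the 22 pairs, whose median was 355.5 CPM. The highest sums were those of Mir219a at 5940 ± 1486 CPM, Mir181a at 5095 ± 560.9 CPM, Mir92 at 4360 ± 724.2 CPM and Mir16 at 1737 ± 236.8 CPM. In the ratio of the higher to the lower copy, Mir218 ranked 5 of 17 with 7.01, where the median was 3.52 and the range 1.16 to 69.4. The read minimum leaves out pairs with a very low copy and so lowers the count of unequal pairs. With every pair that had a read of both copies in both libraries, a choice made after the data were seen, Mir218 ranked 8 of 21. The 3 pairs added above it, Mir103, Mir194 and Mir199a, had only 1 to 18 reads of the lower copy in a library. The pairs nearest to it in this ratio were Mir16 with 5.30 ± 0.21, Mir92 with 10.6 ± 1.62, Mir26a with 4.16 ± 0.52 and Mir19b with 3.89 ± 0.86. Those ratios lay further from 7.01 than the SD of either pair, but an SD of 2 libraries can fall below counting error. By counting error alone, the Mir218 ratio had 95% intervals of 6.09 to 8.45 in replicate 1 and 5.92 to 8.01 in replicate 2. The lower copies of Mir26a and Mir19b had only 21 to 28 reads in a library. Whether these ratios differ from that of Mir218 was not tested. In 19 of 21 pairs with annotated mature strands, as in the Mir218 pair, each copy had exactly 1 strand that also occurs in another hairpin. Of Mir219a-2 and Mir129-1, however, only 1 strand was matched, so these copies had no second strand to compare, unlike the Mir218 genes.

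**Figure D5:**
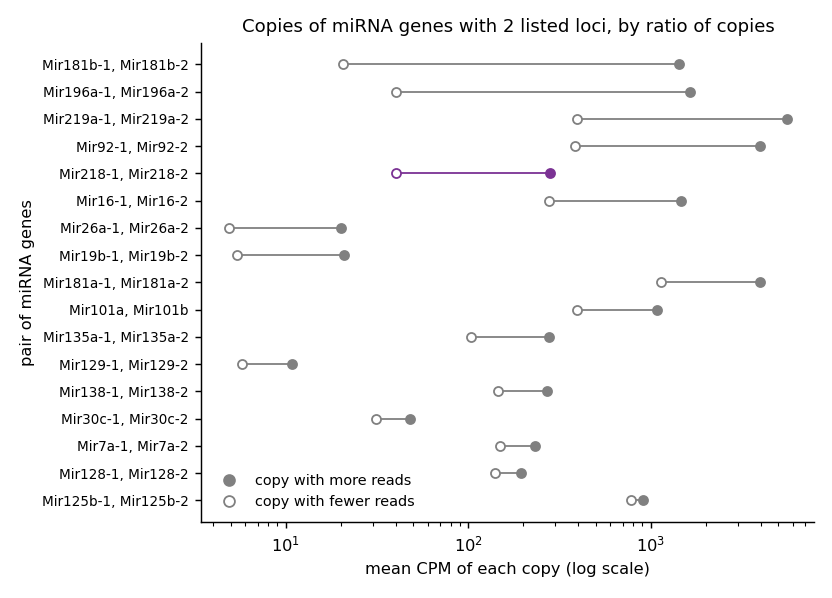
Mean CPM of the copy with more reads (filled) and of the copy with fewer reads (open) on a log scale, for the 17 pairs with both copies detected, ordered by the ratio of the copies. The Mir218 pair, in purple, spans 40.2 to 281.2 CPM, the ratio ranked 5 of 17.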

How the data were processed

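MicroRNA sequencing of neural tube in 2 libraries of 1 group was analysed. The authors deposited, for both, raw read counts of every miRNA gene in whole numbers for both strands together and for each strand. Per the descriptions deposited with them, the counts were made on mm10 with annotation M4 from that library's alignment. The sources used here do not name the aligner, its mismatch setting, the counter or the trimming of adapters. The both-strand count equalled the strand sum for all 1973 genes.

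Own-strand counts were divided by their total (CPM). Reads that name no gene were left out. Of all reads in the files of replicates 1 and 2, those mapping to several places made up 27.0% and 28.6%, unmapped reads 27.3% and 20.0%, and reads on no feature 8.04% and 4.45%. Symbols and places came from GENCODE M21 (same assembly), which matched 1894 identifiers by identifier without version, with RefSeq synonyms for listed genes under another symbol, and sequences from RefSeq. Folding used ViennaRNA 2.7.2.

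With 1 group, edgeR's quasi-likelihood test had no contrast. Libraries were compared by an exact binomial test given TMM-scaled totals (edgeR 4.0.16), with a threshold of 0.05. DESeq2 1.42.0 size factors were an alternative. The scripts used R 4.3.3, Python 3.11.15 and scipy 1.17.1. The test was checked on counts simulated with counting error alone, so that check does not cover spread between pools. Named genes are the Mir218 genes, the 3 detected genes above and below each in level, the 6 highest of the motor neuron list, and up to 8 pairs (4 with the highest sum, 4 nearest in ratio). Members and lists were chosen with earlier results of these data known. The labels give the replicates as separate pools of embryos.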

Additional observations from a re-analysis of the deposited data

How the results depend on the processing

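Scaling by TMM or by DESeq2 size factors, or counting both strands, moved the levels by less than their SD. The denominator mattered more. With reads mapping to several places in it, the levels were 24.3 CPM for Mir218-1 and 169.7 CPM for Mir218-2 and the summed share 0.0194%. With reads on no feature added as well, these were 22.4 CPM, 156.3 CPM and 0.0179%. Without the 2 most abundant genes in the denominator they were 59.7 CPM, 417.8 CPM and 0.0478%. Each of these divides both genes by the same total, so the ratio of Mir218-1 to Mir218-2 cannot change with it, and adding 0.5 reads to each count gave 0.143. With a minimum difference of 2-fold, neither Mir218 gene was called (log2 ratios -0.40 and -0.34) and 10 genes were called in all, against 197 with no minimum. Under the other scalings and read minimums, both stayed called and lower in replicate 1, with log2 ratios of -0.43 to -0.36 for Mir218-1 (adjusted p of the exact binomial test 0.0166 to 0.0330) and -0.37 to -0.30 for Mir218-2. With library totals in place of TMM, 111 genes were higher and 82 lower in replicate 1, against 97 and 100 with TMM. With at least 1 read in either library, 83 were higher and 103 lower of 736 tested, 25.3% in all. A minimum of 100 reads in both libraries, which both Mir218 genes pass, gave 102 higher and 80 lower of 269 tested. That was 67.7% in all, against 53.1% of 371 in the main analysis. Counting both strands gave Mir218-1 a rank of 257, past the 9.90 ranks of its SD. With 1 library left out in turn, Mir218-1 ranged from 35.2 to 45.2 CPM and from rank 241 to 255, Mir218-2 from 251.7 to 310.7 CPM and from rank 135 to 152, and their ratio from 0.140 to 0.146. The summed share ranged from 0.0287% to 0.0356% and the place of the pair by summed level from 10 to 13, against 13 with both. No paired analysis was possible because both libraries belong to 1 group. Depth limits Mir218-1 most, since it rests on 369 reads in all, against 2583 for Mir218-2.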

Other observations

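By point values alone, the ratio of the Mir218 copies differed least between the libraries among the 17 pairs with both copies detected. This pattern was noticed after the values were seen. The Mir218 ratio was 7.15 in replicate 1 and 6.87 in replicate 2, 1.04-fold apart. The median pair was 1.27-fold and the most distant, Mir138, 1.52-fold apart. Next to Mir218 came Mir128, also 1.04-fold, and Mir16, 1.06-fold apart. Counting error alone allows a wider gap for Mir218, whose odds ratio between the libraries was 0.96 (interval given above, 0.77 to 1.20). Its first place among the closest pairs is therefore not resolved by these counts. These are descriptions of 2 libraries, and the order of the pairs was not tested.

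Genes with some but not all mature strands in another hairpin, the class of both Mir218 genes, were detected in 39 of 58 cases, with a median of 145.2 CPM among those detected. Where all strands occur in another hairpin, 20 of 60 were detected, with a median of 71.4 CPM. Where none does, 277 of 798 were detected, with a median of 132.2 CPM. Matches to the reverse complement of another hairpin counted too, as for genes annotated on opposite strands of 1 place. Only strands matched in the RefSeq table were counted. With 1 matched strand, found in 0 other hairpins, Mirlet7a-2 is in the class with none. Its hairpin nevertheless shares at least 20 bases with 2 other genes. The classes are therefore not sets of genes with and without copies, and no effect of copies is read from them. Within the class of 39, Mir218-1 ranked 26 and Mir218-2 13. A further 978 genes with no mature strand matched in the RefSeq table, and the 79 counted identifiers not matched to GENCODE M21, are in none of these classes.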
